A study of Homo sapiens with 36 samples.

Results

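MINO is an established human cell line of mantle cell lymphoma, a B-cell cancer. The libraries described here come from MINO cells given only the vehicle DMSO and collected at 24 h or 72 h, with 3 biological replicates at each time. They were chosen by line, treatment and time as labelled, and make up 6 of the 36 RNA sequencing libraries of the series. The question was what differs after the longer culture without inhibitor, and how far replicate 2 departs from replicates 1 and 3. The other 30 libraries are MINO cells given GS716054, which per the labels inhibits KDM5 (lysine demethylase 5), and the mantle cell lymphoma lines JEKO and UPN-1 given either agent, each at the same times with 3 replicates. All groups shared 1 culture condition per the labels, RPMI-1640 with foetal bovine serum, L-glutamine and penicillin-streptomycin in a humidified CO2 incubator. The labels do not say whether the medium was renewed, at what density the cells were kept, or whether the replicates were separate cultures. The p-values therefore measure the spread between these libraries, which may in part be technical.

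Several transcript programmes are known to follow the supply of nutrients and oxygen. When amino acids run short, uncharged tRNAs activate the kinase GCN2, translation slows, and the transcription factor ATF4 induces transporters and enzymes of amino acid supply. When oxygen falls, the HIF factors are stabilised and induce glucose transporters, glycolytic enzymes and VEGFA. Misfolded protein in the cytosol activates HSF1, which induces heat shock chaperones such as those of the HSPA1 genes.

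The binding motifs of these factors are given in promoters of some genes named below, whether or not they passed the test for time. They are background for the gene names and not measured binding. The windows were read from RefSeq (GRCh38.p14), lie upstream of the annotated start, run 5′ to 3′ on the strand of the gene, and carry the motif in capitals. For HIF the letters ACGTG were searched on both strands, and CACGTG holds a match on each.
CA9, chr9:35673880-35673927, plus strand: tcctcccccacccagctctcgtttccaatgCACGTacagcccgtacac
BNIP3, chr10:131982022-131982086, minus strand: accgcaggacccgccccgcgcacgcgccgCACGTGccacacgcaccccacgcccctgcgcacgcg
LDHA, chr11:18394460-18394524, plus strand: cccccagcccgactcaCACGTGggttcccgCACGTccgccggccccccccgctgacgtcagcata
For ATF4 the letters TGATGNAA were searched on both strands.
CHAC1, chr15:40953232-40953299, plus strand: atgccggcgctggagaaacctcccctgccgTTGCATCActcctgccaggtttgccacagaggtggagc
ASNS, chr7:97872439-97872506, minus strand: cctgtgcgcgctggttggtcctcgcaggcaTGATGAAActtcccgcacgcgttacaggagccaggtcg
For HSF1 the letters GAANNTTC were searched on both strands.
HSPA1B, chr6:31827603-31827670, plus strand: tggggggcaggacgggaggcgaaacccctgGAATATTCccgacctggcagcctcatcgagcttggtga
In the 250 bases upstream of the start, ACGTG stood in 5101 of 27305 promoters (18.7%) and in 12 of 27 promoters (44.4%) of the glycolysis and hypoxia list described below. TGATGNAA stood in 870 promoters (3.19%) and in 3 of 27 (11.1%) of the amino acid and ATF4 list, and GAANNTTC in 1597 (5.85%) and in 7 of 16 (43.8%) of the heat shock list. No TGATGNAA match was found in this window of ASS1, SLC6A9, SESN2 or DDIT3, no ACGTG match in that of ADM or PFKFB4, and no GAANNTTC match in that of DNAJB1. Among genes named from those past the threshold for time, 8 had a promoter to read, and 0 of these held any of these motifs. No promoter was available for INHBE, GPT2, VEGFA, SLC2A3 or NDUFA4L2.

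Each of the 6 libraries held 9269078 to 14970876 reads in genes, so that a count of 0 allows at most 0.2 to 0.324 CPM (3 counts, counting error only). CPM are counts scaled to a common number of gene reads, here with library sizes adjusted by the TMM method. The 8 B-cell and mantle cell lymphoma markers, among them CCND1, SOX11, PAX5 and MS4A1, were all expressed. The T-cell markers CD3D, CD3G and CD2 were at 0 in all 6 libraries. The summed level of the 6 T-cell markers was 5.592 to 8.134 CPM at 24 h and 11.2, 29.24 and 11.92 CPM at 72 h, where CD4 and CD8A made up most of the value of replicate 2. The part of these markers in the results was not tested. Summed markers of NK cells, myeloid cells, erythroid cells and fibroblasts lay at or below 1.854 CPM, and of the epithelial markers only EPCAM passed 1 CPM (6.402 to 13.59 CPM), with KRT18 and KRT19 at 0. In bulk RNA, fewer cells of a kind and less RNA per cell cannot be told apart.

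Replicate 2 stood apart at both times, and this shapes every comparison that follows. On the first principal component of log2 CPM (51.7% of the variance over 14841 genes), replicates 1 and 3 lay at -41.1 and -43.2 at 24 h and at 14.4 and 12.5 at 72 h. Replicate 2 lay between these at 24 h (-9.8) and beyond them at 72 h (67.2). The median absolute log2 difference between replicates 1 and 3 was 0.162 at 24 h and 0.132 at 72 h. For replicate 2 against them it was 0.218 and 0.229 at 24 h, and 0.414 and 0.413 at 72 h. Replicate 2 at 24 h was closer to replicate 1 at 72 h (0.227) than replicate 1 at 24 h was (0.31).

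**Figure D1:**
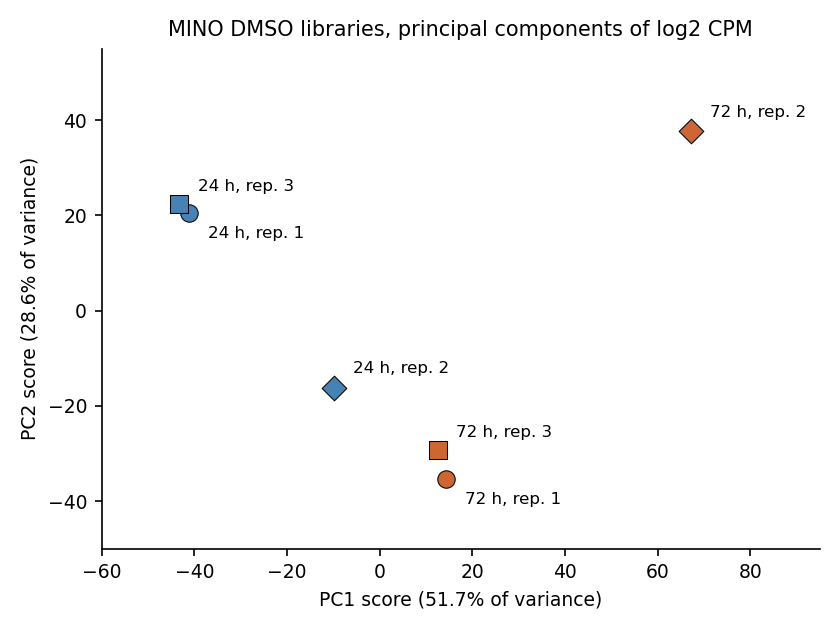
Scores of the 6 MINO DMSO libraries on the first 2 principal components of log2 CPM, with the share of variance on each axis and the replicate number at each point. Replicates 1 and 3 sit together within each time, and replicate 2 lies at -9.8 (24 h) and 67.2 (72 h) on the first component.

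Between 24 h and 72 h, 13 genes rose and 1 fell in the vehicle cultures (edgeR quasi-likelihood test over the 12 MINO libraries, Benjamini-Hochberg adjusted p under 0.05). These are 0.0865% and 0.00665% of 15028 genes tested, or 0.0932% together, whereas 3580 genes had an unadjusted p under 0.05. Without replicate 2 at either time and treatment, 2226 genes passed as higher (14.7% of 15102) and 1993 as lower (13.2%), and all 13 and the 1 were among them. When replicate 1 or replicate 3 was left out instead, 1 gene and no gene passed. Replicates 1 and 3 were the closest pair at each time in DMSO. The counts and p-values without replicate 2, here and below, rest on the small spread of that pair. These p-values are therefore likely too small. DESeq2 on all 12 libraries called 568 higher and 413 lower.

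Of the genes that rose, ASS1, INHBE, SLC6A9, SESN2 and GPT2 handle amino acids or are known to answer to their shortage. ASS1 (ENSG00000130707, chr9:130444961-130501274), argininosuccinate synthase, makes the precursor from which cells can form arginine. It was at 14.5, 18.72 and 11.51 CPM in replicates 1, 2 and 3 at 24 h and at 162, 189.9 and 185.7 CPM at 72 h. The 3 libraries of each time lay close together, replicate 2 included, and the times did not overlap. The log2 change was 3.59 (SE 0.255, edgeR adjusted p = 5.16e-05), and 3.77 without replicate 2. ASS1 has many processed pseudogenes in the genome, so its count depends on how reads that match several copies were treated.

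INHBE (chr12:57452323-57459280) encodes the beta E subunit of activin and is a known ATF4 target. It was at 2.944, 2.843 and 2.35 CPM at 24 h and 17.08, 20.93 and 18.15 CPM at 72 h, a log2 change of 2.78 (SE 0.308, edgeR adjusted p = 0.0025). SLC6A9 (chr1:43991500-44031467), the glycine transporter GlyT1, was at 3.381, 5.212 and 2.188 CPM at 24 h and 21.46, 18.09 and 21.66 CPM at 72 h (log2 change 2.5, SE 0.279, edgeR adjusted p = 0.0025). In both genes every 72 h library was well above every 24 h library. SESN2 (chr1:28259518-28282491), a sestrin that senses leucine and restrains mTORC1, went from 13.85, 12 and 13.86 CPM to 36.53, 29.93 and 40.79 CPM (log2 change 1.44, SE 0.153, edgeR adjusted p = 0.0025). GPT2, the mitochondrial alanine aminotransferase, went from 58.13, 57.17 and 63.45 CPM to 131.2, 106.8 and 144.7 CPM (log2 change 1.1, SE 0.143, edgeR adjusted p = 0.00896). Replicate 2 was the lowest 72 h library for SLC6A9, SESN2 and GPT2, yet still above all 24 h libraries.

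The other genes that rose have more varied roles. EDEM1, which helps clear misfolded glycoproteins from the endoplasmic reticulum, was at 254.5, 260.4 and 265.3 CPM at 24 h and 536, 519.7 and 515.8 CPM at 72 h (log2 change 1.01, edgeR adjusted p = 0.0378). TP63, a transcription factor of the p53 family, was at 23.56, 29.61 and 21.88 CPM and then 63.44, 58.58 and 57.61 CPM (log2 change 1.26, edgeR adjusted p = 0.0353). SNTB1, a syntrophin of the dystrophin complex, differed among the libraries of each time by less than 1 CPM, at 24.21, 24.32 and 23.66 CPM and then 45.86, 45.97 and 45.75 CPM (log2 change 0.93, edgeR adjusted p = 0.0229). LRRC75B, RIMS3, TM6SF1 and the pseudogene SNX29P1 rose by 1.77, 1.59, 1.2 and 1.51 on the log2 scale. TM6SF1 overlaps HDGFL3 on the other strand, and the strand setting of the counting is not given, so reads of the pair cannot be told apart. The same limit holds for 3 genes described below. These are TYMS (47.9% of its exons, with ENOSF1 and TYMSOS), CA9 (35.7%, with ARHGEF39) and NAPSA (33%, with NR1H2). PCDH9, a protocadherin named after its values were seen, rose by 0.85 (edgeR adjusted p = 0.0378).

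BIK, a BH3-only protein that promotes apoptosis, was the only gene that fell. It was at 10.36, 7.502 and 8.59 CPM at 24 h and 2.44, 2.445 and 2.602 CPM at 72 h. The log2 change was -1.81 (SE 0.261, edgeR adjusted p = 0.0197), and the 3 libraries at 72 h differed little. The other 11 places for lower genes were filled from a model with the replicate number as a block, and none of these genes passed the test here (edgeR adjusted p from 0.0772 to 0.216). The chemokine receptor CXCR3 was at 9.16, 4.343 and 8.59 CPM and then 2.368, 0.489 and 1.997 CPM (log2 change -2.12, edgeR adjusted p = 0.0772). FZD1, GBP1, ALDH4A1, APOBR, FCRLB, NAPSA, FAM111B, GLYATL2, CBR3-AS1 and OR7E38P had log2 changes from -1.69 to -1.1. The times did not overlap in any of the 11 genes, but this was a condition of their choice and lends them no support.

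**Figure D2:**
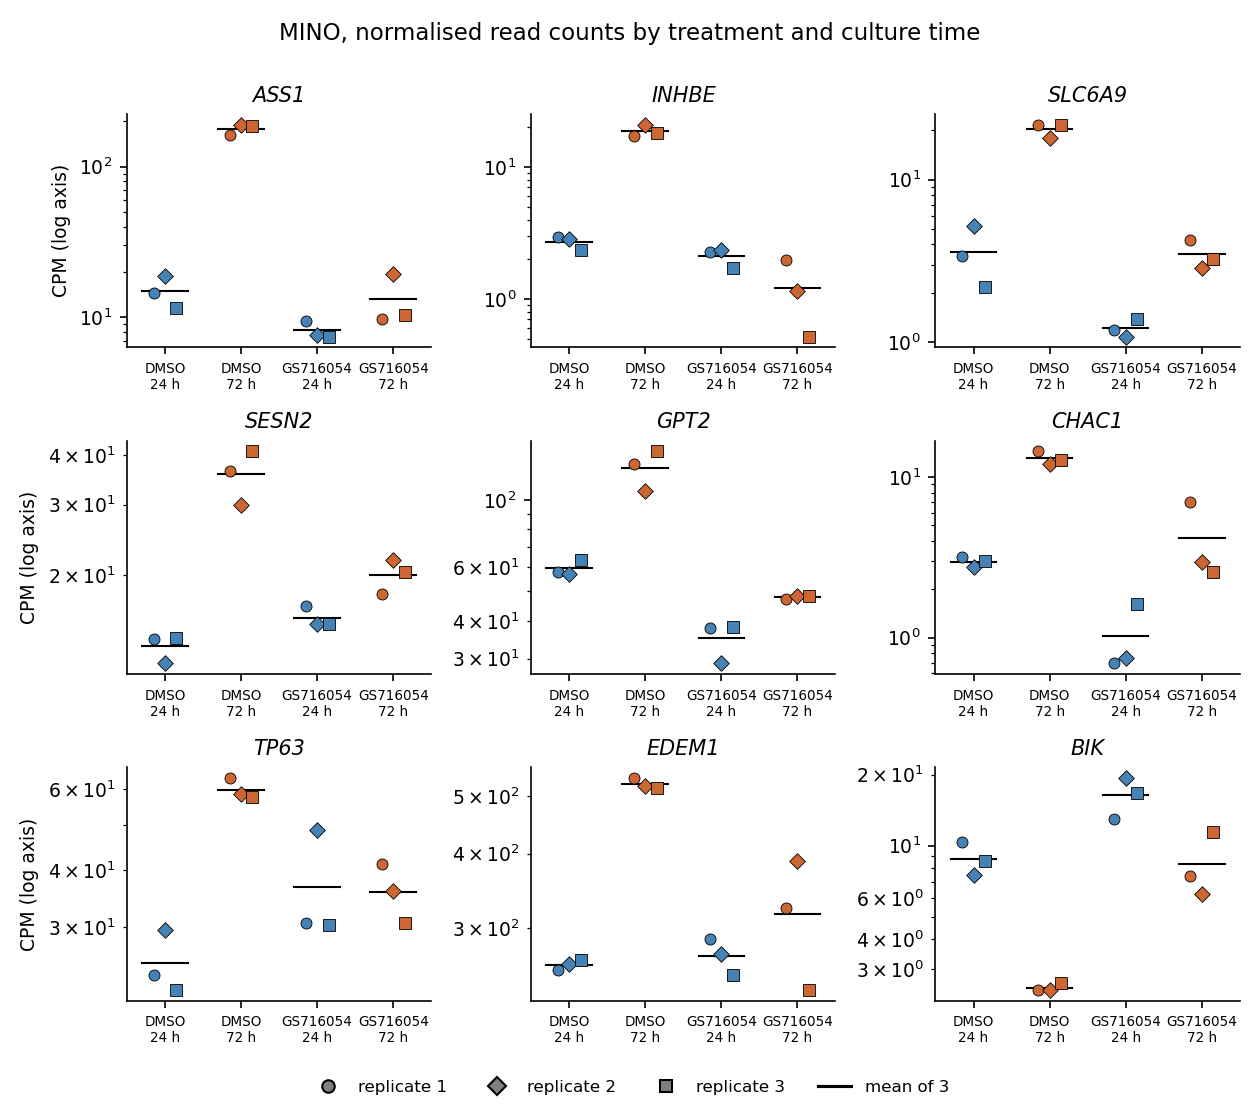
Normalised read counts (CPM, log axis) in the 12 MINO libraries by treatment and time, 1 point per library and a line at the mean of 3, for genes that differed between the times in DMSO or belong to the amino acid and ATF4 list. In DMSO the ASS1 points span 11.51 to 18.72 CPM at 24 h and 162 to 189.9 CPM at 72 h.

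The amino acid and ATF4 list was the gene group in which the largest share of members stood higher at 72 h. Of its 29 tested members, 3 rose (INHBE, SLC6A9 and SESN2) and none fell, and the median log2 difference was 0.79 (0.77 without replicate 2), against 0.04 over all genes. All 3 libraries at 72 h lay above all 3 at 24 h in 23 members (79.3%), whereas this held for 2322 of all 15028 genes (15.5%). The reverse order held for 1 member and for 2571 genes (17.1%). Without replicate 2, 22 members passed as higher and 1 as lower, against 14.7% and 13.2% of all genes. ATF4 itself was at 220.9, 248 and 231.4 CPM at 24 h and 356.8, 513 and 404.1 CPM at 72 h (log2 difference 0.86, edgeR adjusted p = 0.0735). The glutathione-degrading enzyme CHAC1 was at 3.163, 2.764 and 2.998 CPM and then 14.43, 12.13 and 12.71 CPM, just outside the threshold (log2 difference 2.14, edgeR adjusted p = 0.0504). Neither overlapped between the times.

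Transporters and serine enzymes of the same list moved less evenly. The cystine transporter SLC7A11 was at 3.817, 2.211 and 3.728 CPM at 24 h and 13.49, 7.922 and 16.7 CPM at 72 h (log2 difference 1.98, edgeR adjusted p = 0.0806). PHGDH, the first enzyme of serine synthesis, was at 175.6, 165 and 190.4 CPM and then 359.8, 248.7 and 402.3 CPM (log2 difference 0.93, edgeR adjusted p = 0.114). In both, replicate 2 was the lowest 72 h library, and the times did not overlap. ASNS, asparagine synthetase, was low throughout, at 1.091, 2.685 and 0.2431 CPM and then 5.526, 2.934 and 3.389 CPM, and PSAT1 stayed under 0.2 CPM in every library. CEBPG, PSPH and SLC1A4 had negative log2 differences of -0.16, -0.33 and -0.42, and none passed the test. The list also holds VEGFA and DDIT4, which hypoxia induces as well and in which replicate 2 was far above the others. Among cytosolic tRNA ligases, which charge tRNAs, none of 12 passed the test with all libraries, 3 (25%, against 15.5% of all genes) stood higher in all 3 libraries at 72 h, and the median log2 difference was 0.16. Without replicate 2, 6 passed as higher and none as lower, against 14.7% of all genes as higher. CARS1 was at 40.79, 42.17 and 38.09 CPM and then 69.9, 57.51 and 69.89 CPM.

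Genes of DNA replication and the G1 to S transition stood lower at 72 h as a group, although none passed the test with all libraries. In 26 of 37 tested members (70.3%, against 17.1% of all genes) every 72 h library lay below every 24 h library, and no member showed the reverse order. The median log2 difference was -0.62, and -0.45 without replicate 2, where 29 of 37 passed as lower and none as higher. TYMS, thymidylate synthase, was at 231.1, 180.7 and 235.2 CPM at 24 h and 120.6, 83.62 and 127.9 CPM at 72 h (log2 difference -0.96, edgeR adjusted p = 0.124, and 2.33e-05 without replicate 2). MCM5, a subunit of the replicative helicase, was at 789.8, 648 and 953.6 CPM and then 556.4, 326.1 and 590.3 CPM. Replicate 2 was the lowest library of its time for both genes at both times. Mitosis genes showed the same order in 23 of 33 members (69.7%; median -0.41), with CDC20, an activator of the anaphase-promoting complex, at 204, 164.2 and 193 CPM and then 99.4, 88.7 and 102 CPM. Ribosome biogenesis genes did so in 25 of 33 (75.8%; median -0.43), and nuclear-encoded respiratory chain genes in 20 of 35 (57.1%; median -0.29). No member of these 3 lists stood higher in all 3 libraries at 72 h. Without replicate 2, 15, 18 and 14 of their members passed as lower and 1, 0 and 0 as higher. Over all genes, 13.2% passed as lower and 14.7% as higher there.

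The remaining lists varied in direction. Over all genes, 17.1% stood lower and 15.5% higher in all 3 libraries at 72 h. Without replicate 2, 13.2% passed as lower and 14.7% as higher. Cytosolic chaperones of the heat shock list stood lower in all 3 libraries at 72 h in 10 of 17 members (58.8%), and 13 passed as lower without replicate 2. HSPA8, the constitutive HSC70, was at 1935, 1821 and 1900 CPM at 24 h and 968.4, 963.2 and 1045 CPM at 72 h (log2 difference -0.93, edgeR adjusted p = 0.113, and 0.00015 without replicate 2). Among chaperones of the endoplasmic reticulum, 10 of 20 stood lower (50%) and 4 higher (20%), EDEM1 among the latter. Of 17 genes of the oxidative stress response to NRF2, 8 stood lower (47.1%) and 2 higher (11.8%), the latter below the share over all genes. Immunoglobulin constant genes stood higher in 6 of 11 members (54.5%) and lower in none. For IGHM, the heavy chain of IgM, the size of the difference rested on replicate 2, while all 3 libraries at 72 h stood above those at 24 h. IGHM was at 4085, 3876 and 4449 CPM at 24 h and 4458, 10770 and 4680 CPM at 72 h, and its log2 difference of 0.68 became 0.11 without replicate 2. IGHA1 and IGHG4, whose near-identical copies make the split of reads uncertain, had log2 differences of 0.74 and 1 without replicate 2. CD22, a B-cell receptor inhibitor, was at 18.21, 21.72 and 16.86 CPM and then 38.9, 52.52 and 41.21 CPM (log2 difference 1.22, edgeR adjusted p = 0.0504). In the class I and II antigen presentation list, 2 of 24 members stood lower and none higher, below the share over all genes.

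**Figure D3:**
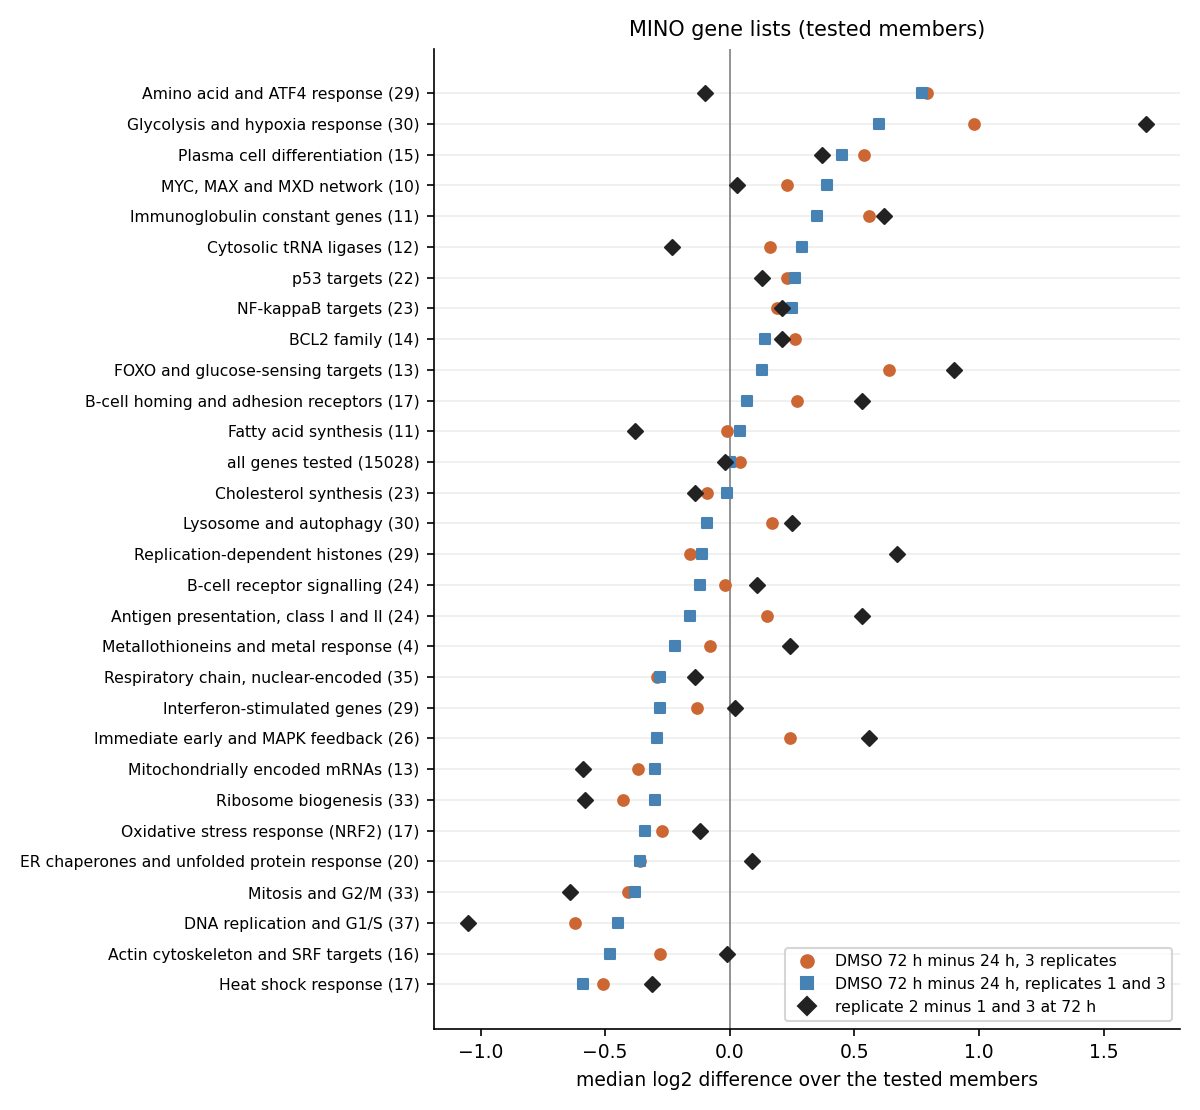
Median log2 difference over the tested members of each gene list in MINO (horizontal axis), for 72 h minus 24 h in DMSO with all libraries and without replicate 2, and for replicate 2 against replicates 1 and 3 at 72 h. The amino acid and ATF4 list lies at 0.79 with and 0.77 without replicate 2, while the glycolysis and hypoxia list lies at 0.98 and 0.6.

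Glycolysis and hypoxia genes separated replicate 2 from the others. Of 30 tested members none passed the test for time. In 12 (40%, against 15.5% of all genes) all 3 libraries at 72 h stood higher, and in none lower. The median log2 difference was 0.98, and 0.6 without replicate 2. There 17 passed as higher and 2 as lower, against 14.7% and 13.2% of all genes. VEGFA, which promotes vessel growth, was at 11.78, 80.71 and 10.86 CPM at 24 h and 115.3, 457.3 and 123.3 CPM at 72 h. PFKFB4, which controls glycolytic flux, was at 0.9815, 11.53 and 0.5673 CPM and then 25.33, 130.7 and 24.51 CPM. Replicate 2 was the highest library at both times for both genes, and its 24 h value lay between the 2 times of replicates 1 and 3. The log2 differences without replicate 2 were 3.42 for VEGFA (edgeR adjusted p = 4.61e-05) and 5.06 for PFKFB4 (edgeR adjusted p = 1.61e-05). With all libraries they were 2.74 and 3.73, and neither passed (edgeR adjusted p = 0.169 and 0.144). LDHA, lactate dehydrogenase A, differed in another way: it was at 1237, 1538 and 1055 CPM and then 1070, 3405 and 1085 CPM, and at 72 h the library of replicate 2 alone lay far above the 24 h libraries.

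Over the genes that passed without replicate 2, the 24 h library of replicate 2 lay part of the way to 72 h. Among 2201 such higher genes also tested with all libraries, its median position was 0.577, where 0 is the 24 h mean and 1 the 72 h mean of replicates 1 and 3, and 1838 genes (83.5%) had it in between. Among 1991 lower genes the median position was 0.457, and 1668 (83.8%) had it in between. At 72 h the median position of replicate 2 was 0.802 for the higher and 1.18 for the lower genes, and 895 (40.7%) and 1158 (58.2%) lay beyond replicates 1 and 3. From 24 h to 72 h replicate 2 itself moved in the direction of the others in 1375 higher genes (62.5%) and 1541 lower genes (77.4%), with median log2 differences of 0.24 and -0.37, against 0.85 and -0.46 in replicates 1 and 3. These genes were chosen on replicates 1 and 3, so the positions are a description with no test.

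Tested over both times in the 6 DMSO libraries, replicate 2 had 8 genes above the mean of replicates 1 and 3 and none below (edgeR, 0.0539% and 0% of 14841 genes; 1419 had an unadjusted p under 0.05, and DESeq2 called 118 in either direction). Those with a symbol were CA9, H19, LRRC32, SECTM1, ADM and ELFN2. By the rule for named genes only ADM is described, and the others were named after their values were seen. ADM encodes the vasodilator peptide adrenomedullin, which hypoxia induces. It was at 3.053, 21.72 and 3.971 CPM at 24 h and 19.81, 147.4 and 19.61 CPM at 72 h, and replicate 2 at 24 h was close to replicates 1 and 3 at 72 h. The log2 difference of replicate 2 from the others was 2.77 (edgeR adjusted p = 0.022).

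The size of the departure differed between the times. A test added after the values were seen took the DMSO and GS716054 libraries of MINO together and set replicate 2 against replicates 1 and 3 at each time, with 2 libraries against 4. Same-numbered DMSO and GS716054 libraries deviated from their group means together (correlations of 0.13 to 0.269 at 24 h and 0.287 to 0.551 at 72 h), so they are not fully independent and these p-values are likely too small. At 24 h, 165 of 15440 genes were higher in replicate 2 (1.07%) and 28 lower (0.181%). At 72 h, 2741 were higher (17.8%) and 2638 lower (17.1%). The difference between the times was itself past the threshold in 1299 genes in the higher direction (8.41%) and 1178 in the lower (7.63%).

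At 72 h the glycolysis and hypoxia list was higher in replicate 2 almost throughout. Of 30 members 29 passed as higher and none as lower, against 17.8% and 17.1% of all genes. The median log2 difference was 1.67 against -0.02 over all genes. All 30 had the DMSO library of replicate 2 above both others, as did 6272 of all 15028 genes tested for time. At 24 h, 13 of the 30 passed as higher and none as lower, against 1.07% and 0.181% of all genes, with a median of 0.61. SLC2A3, a high-affinity glucose transporter with a close paralog in SLC2A14, was at 3.163, 6.475 and 4.457 CPM at 24 h and 11.55, 439.1 and 10.17 CPM at 72 h. CA9, carbonic anhydrase IX, was under 0.2 CPM in all 24 h libraries and at 1.292, 32.66 and 0.7867 CPM at 72 h. BNIP3, a receptor for removal of mitochondria, was at 28.24, 66.89 and 22.77 CPM and then 61.07, 366.6 and 59.61 CPM. In all 3 genes the 72 h library of replicate 2 exceeded every other DMSO library, with log2 differences from replicates 1 and 3 at 72 h of 4.81, 5.19 and 2.55 (edgeR adjusted p = 1.66e-10, 1.07e-07 and 5.53e-10). The respective values for VEGFA and LDHA were 2.44 and 1.49. KDM5B, the lysine demethylase targeted by the inhibitor in other libraries and itself induced by hypoxia, was at 31.52, 52.2 and 32.33 CPM and then 60.43, 246.9 and 62.27 CPM (log2 difference of replicate 2 at 72 h 1.91, edgeR adjusted p = 2.4e-09).

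**Figure D4:**
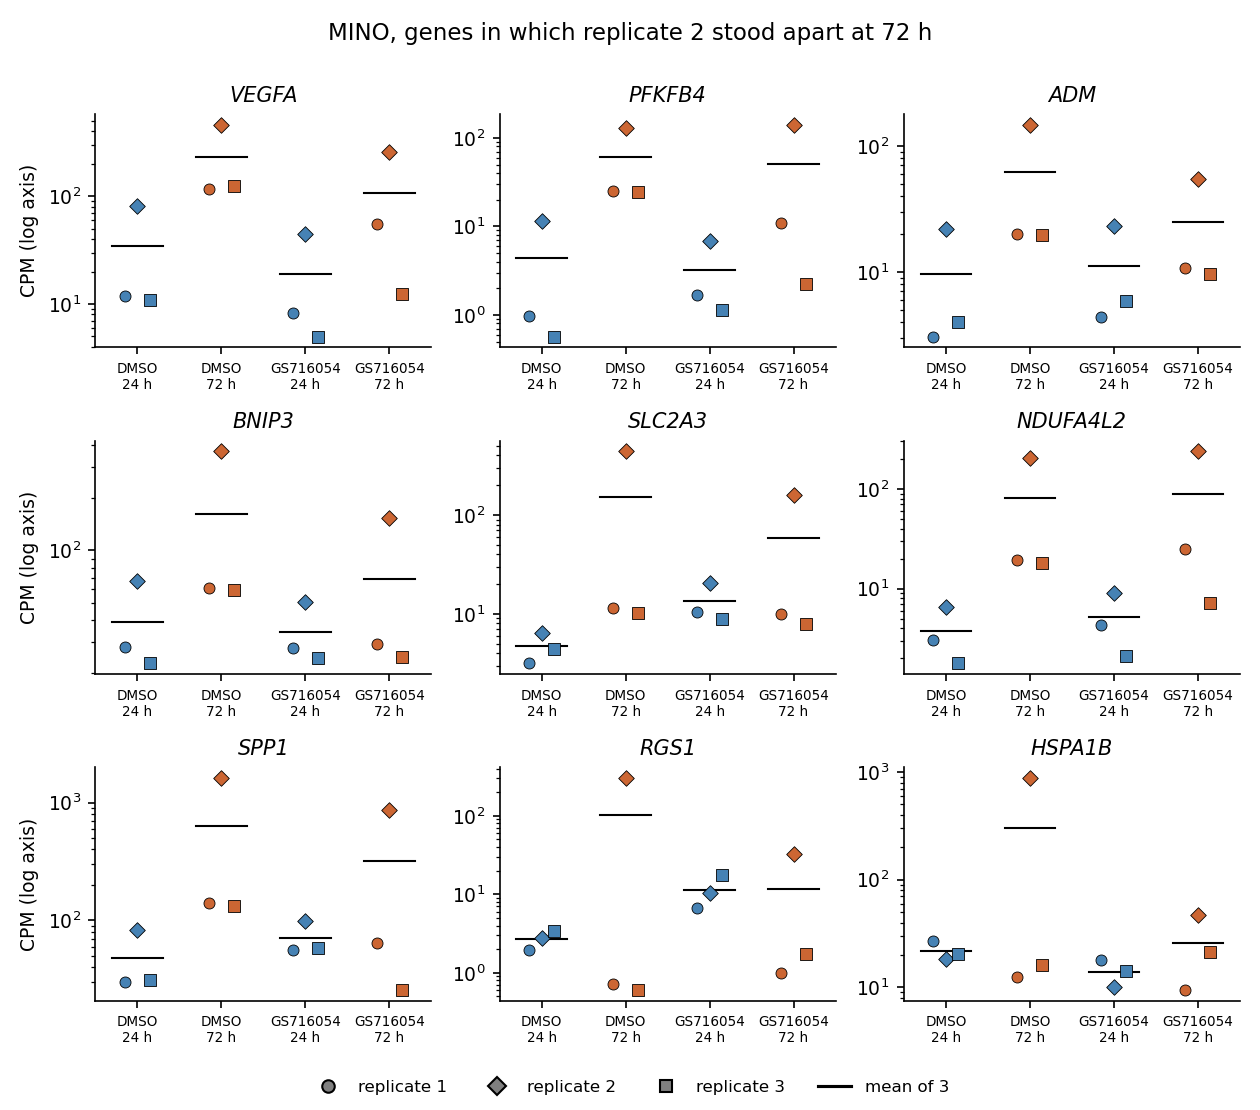
Normalised read counts (CPM, log axis) in the 12 MINO libraries by treatment and time, 1 point per library with the replicates marked and a line at the mean of 3, for genes in which replicate 2 stood apart at 72 h. For SLC2A3 the DMSO library of replicate 2 reads 439.1 CPM at 72 h, against 11.55 and 10.17 CPM in replicates 1 and 3.

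DNA replication genes were lower in replicate 2 at 72 h in 37 of 37 members, with a median log2 difference of -1.05. At 24 h they were lower in 5 of 37, with a median of -0.46. Over all genes, 17.1% were lower and 17.8% higher in replicate 2 at 72 h, and 0.181% were lower at 24 h. CDC45, a part of the replicative helicase complex, was at 58.34, 49.59 and 54.78 CPM at 24 h and 39.83, 17.31 and 44.42 CPM at 72 h (log2 difference of replicate 2 at 72 h -1.57, edgeR adjusted p = 6.1e-06). FAM111B, a trypsin-like protease, was at 48.53, 36.09 and 61.1 CPM and then 31.72, 7.531 and 28.08 CPM (log2 difference -1.88, edgeR adjusted p = 3.27e-06). For both, replicate 2 was the lowest library at each time. Mitosis genes were lower in 24 of 33 members and ribosome biogenesis genes in 27 of 33, and none of either was higher. Of 13 genes of FOXO and glucose sensing 10 were higher and none lower. TXNIP, an arrestin that restrains glucose uptake, was at 58.89, 52.36 and 49.11 CPM and then 87.99, 243.6 and 93.98 CPM. Antigen presentation genes were higher in 13 of 24 and lower in 2, the latter below the share over all genes. Immunoglobulin constant genes were higher in 8 of 11. The amino acid and ATF4 list did not share this order: 10 of its 29 members were higher and 7 lower in replicate 2 at 72 h, with a median of -0.1.

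HSPA1B and DNAJB1 of the heat shock list were far higher in the DMSO library of replicate 2 at 72 h than in all other MINO libraries. The list as a whole was mixed at 72 h, with a median log2 difference of -0.31. In replicate 2, 5 of its 17 members passed as higher and 6 as lower, against 17.8% and 17.1% of all genes. HSPA1B, inducible HSP70, was at 27.15, 18.16 and 20.42 CPM at 24 h and 12.56, 880.3 and 16.16 CPM at 72 h. In GS716054 at 72 h it was at 9.439, 46.51 and 21.26 CPM. HSPA1A and HSPA1B are near-identical, so the split of reads between them is uncertain. DNAJB1, an HSP40 co-chaperone, was at 116.8, 102.6 and 112.2 CPM and then 82.6, 1114 and 77.16 CPM, and at 93.51, 129.6 and 120.2 CPM in GS716054 at 72 h. In both genes 1 library held nearly the whole difference between the times, and without replicate 2 the log2 difference between the times was -0.7 for HSPA1B and -0.5 for DNAJB1, against 3.79 and 1.94 with it. HSPA8 and HSP90AA1, the alpha form of HSP90, were at 963.2 and 1811 CPM in that library, below every 24 h library.

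Genes with large departures of replicate 2 at 72 h were named by a rule added after the values were seen. It takes, among genes averaging 1 or more in log2 CPM, the 12 largest called differences in each direction in which both replicate 2 libraries stood apart. That average covers the DMSO libraries, replicate 2 included. RGS1 and DEPP1, low in the other DMSO libraries, reached it only through the 72 h library of replicate 2. Their place among the largest differences is therefore in part set by the rule. In the higher direction these include SLC2A3 and NDRG1 of the glycolysis and hypoxia list, HSPA1B of the heat shock list and the histone gene H2AC6. RGS1, a regulator of G protein signalling in B cells, was at 1.963, 2.764 and 3.404 CPM at 24 h and 0.7177, 302.6 and 0.6051 CPM at 72 h, and at 32.6 CPM in replicate 2 with GS716054 (log2 difference 7.21, edgeR adjusted p = 8.44e-08). SPP1, the secreted phosphoprotein osteopontin, was at 29.88, 82.92 and 31.2 CPM and then 141.4, 1615 and 132.4 CPM (log2 difference 3.92, edgeR adjusted p = 9.08e-09). In SPP1 replicate 2 was the highest library at both times, whereas in RGS1 it stood out only at 72 h. DEPP1, LRRC32, IL2RB, NDUFA4L2, NRN1, H2AC6, BHLHE40-AS1 and NDRG1 followed, with log2 differences from 3.53 to 3.88. The 12 genes with the largest differences in the lower direction ran from -3.45 to -1.84. They were led by MT-ATP8, which overlaps MT-ATP6, and AMH, and except for FAM111B they lay under 20 CPM in all DMSO libraries but MT-ATP8 in 1 (30.57 CPM). At 72 h in DMSO, MT-ATP8 was at 30.57, 0.978 and 3.026 CPM and AMH at 3.875, 0.489 and 2.3 CPM. Such large ratios therefore rest on few counts in replicate 2, and that of MT-ATP8 also on the 1 high library of replicate 1.

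None of the disease and KDM5 genes followed by name passed the test for time. CCND1, the cyclin activated by the defining translocation, was at 1880, 1591 and 1888 CPM at 24 h and 1795, 2576 and 1879 CPM at 72 h (log2 difference 0.22, edgeR adjusted p = 0.469). SOX11, a transcription factor of the disease, was at 154.2, 140.6 and 157.9 CPM and then 178.8, 328.9 and 196.7 CPM (log2 difference 0.64, edgeR adjusted p = 0.127). The times overlapped for CCND1 and not for SOX11, and replicate 2 was the highest 72 h library for both genes. BCL2, which blocks apoptosis, was at 87.35, 96.66 and 84.2 CPM and then 148.3, 392.8 and 146.9 CPM (log2 difference 1.36, edgeR adjusted p = 0.113). Without replicate 2 its log2 difference was 0.8 (edgeR adjusted p = 3.09e-05). MYC was at 472.1, 503.6 and 430.8 CPM and then 583.4, 734.6 and 636.4 CPM (log2 difference 0.47, edgeR adjusted p = 0.116). MCL1, BTK, KDM5A and KDM5C had log2 differences of -0.04, 0.06, 0.22 and 0.27, and KDM5D had 0.61 (edgeR adjusted p from 0.199 to 0.882). KDM5B had 1.67 (edgeR adjusted p = 0.137). Without replicate 2, KDM5B (0.96), KDM5D (0.91), MYC (0.45) and SOX11 (0.28) passed as higher, with edgeR adjusted p of 3.4e-05, 0.0188, 0.00489 and 0.0466. These p-values rest on the closest pair of replicates and are likely too small.

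The same interval was also sampled in MINO cells given GS716054. In them 128 genes rose between 24 h and 72 h (0.852%) and 50 fell (0.333%) in the same edgeR model. The change with time differed between the agents in 2 genes, both lower with GS716054 (0.0133%), and in none in the higher direction (0%). These were ASS1 and INHBE. ASS1 was at 9.399, 7.678 and 7.426 CPM at 24 h and 9.768, 19.26 and 10.42 CPM at 72 h with GS716054 (log2 difference 0.7, edgeR adjusted p = 0.155), and its change differed from that in DMSO by -2.89 (edgeR adjusted p = 0.025). INHBE was at 1.976, 1.152 and 0.5165 CPM at 72 h with GS716054, and its change differed by -3.61 (edgeR adjusted p = 0.0277). The count of such genes ran from 0 to 4 when single libraries were left out. SLC6A9 and LRRC75B also rose with GS716054, by 1.49 and 1.85 on the log2 scale (edgeR adjusted p = 0.0446 and 0.0209), and CHAC1 rose by 1.98 (edgeR adjusted p = 0.0435). The median of the amino acid and ATF4 list was 0.31 there.

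In the other lines the same interval was measured in a model of all 36 libraries, where JEKO DMSO had 2920 higher genes (16.2% of 17980) and 2914 lower (16.2%), and UPN-1 DMSO 155 higher (0.862%) and 26 lower (0.145%). Of the 13 genes that rose in MINO, 12 also rose in JEKO and none passed the test in UPN-1. BIK fell by 1.31 on the log2 scale in JEKO (edgeR adjusted p = 0.0246), and its log2 difference of -1.38 in UPN-1 did not pass (edgeR adjusted p = 0.374). ASS1 rose by 4.61 on the log2 scale in JEKO (edgeR adjusted p = 2.13e-05) and differed by 0.18 in UPN-1 (edgeR adjusted p = 0.901). The replicates were uneven in both lines. In JEKO DMSO ASS1 was at 16.27, 15.96 and 11.46 CPM at 24 h and 576.1, 69.07 and 422.3 CPM at 72 h, with replicate 2 the lowest there. In UPN-1 DMSO it was at 40.06, 38.23 and 36.42 CPM and then 65.76, 38.9 and 25.51 CPM. The median of the amino acid and ATF4 list was 1.4 in JEKO and 0.24 in UPN-1. Its summed level at 72 h in DMSO was 9336, 6022 and 9652 CPM in JEKO and 5820, 4232 and 4397 CPM in UPN-1. A test of the MINO change against the mean of the changes in JEKO and UPN-1 passed in no gene in either direction (edgeR, 0% of 17980; 1547 had an unadjusted p under 0.05, and DESeq2 called 30). That mean joins lines with unlike changes, and the MINO change carries the spread of replicate 2. The test therefore does not show that MINO changed like the other lines.

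The summed level of the glycolysis and hypoxia genes was compared across lines and agents. On the scale of all 36 libraries the 30 genes summed to 14480, 16410 and 14220 CPM in MINO DMSO at 24 h and 12640, 35040 and 13530 CPM at 72 h. With GS716054 they summed to 11570, 27110 and 10590 CPM at 72 h. JEKO DMSO had 13670, 15050 and 14950 CPM at 24 h and 6741, 15250 and 9162 CPM at 72 h. There replicate 2 lay near its 24 h level and replicates 1 and 3 lay lower, whereas in MINO DMSO replicate 2 lay above its 24 h level. A sum is weighted towards the most abundant members. In JEKO and in replicates 1 and 3 of MINO the typical member moved otherwise. The median log2 difference of the list between the times in DMSO was 0.34 in JEKO and 0.84 in UPN-1. In MINO without replicate 2 it was 0.6, although the sums of replicates 1 and 3 were lower at 72 h. UPN-1 DMSO had 14600, 15570 and 15170 CPM at 24 h and 17000, 19420 and 14820 CPM at 72 h. Replicate 2 was the highest of 3 in 6 of 6 sets of line and agent at 72 h, and in 4 of 6 at 24 h. What the libraries numbered 2 share is not given in the labels, and its part in the result was not tested.

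**Figure D5:**
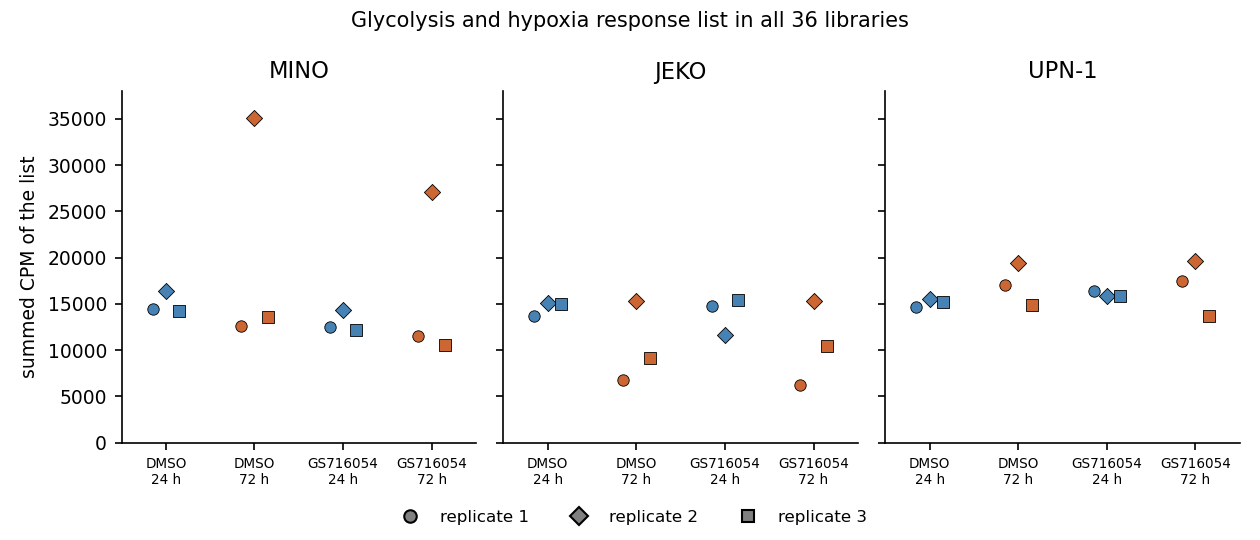
Summed CPM of the 30 glycolysis and hypoxia genes (vertical axis, starting at 0) in all 36 libraries, by line, agent and time, 1 point per library with the replicates marked. In MINO DMSO at 72 h replicate 2 reads 35040 CPM, against 12640 and 13530 CPM in replicates 1 and 3.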

How the data were processed

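The authors deposited raw read counts per Ensembl gene, 1 table per library, with 58302 gene IDs and 5 summary lines; the submitters' processing notes list HISAT2 2.2.1, HTSeq 0.13.5 and GRCh38, with no role or order. The strand setting and annotation release are not given in the sources used here. Summary lines were left out, and reads in no feature were 43.4% to 44.5% of reads in the 6 libraries. Symbols and positions come from GENCODE 44 (57532 IDs matched).

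Counts were fitted in R 4.3.3 with edgeR 4.0.16 (quasi-likelihood test, TMM scaling, filterByExpr with minimum count 10 and total 15) over the 12 MINO libraries, with 1 coefficient per group and 8 residual degrees of freedom. The contrast of replicate 2 used the 6 DMSO libraries (2 residual degrees of freedom). The call threshold was 0.05 after Benjamini-Hochberg adjustment across every gene in the fit. DESeq2 1.42.0, other filters, scalings, models and sets of libraries were alternatives. The tests were checked on simulated counts with known changes and the same dispersion in every gene. In the check of the time test no replicate departed from the others. That check therefore does not cover a departure like that of replicate 2.

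Members and the gene lists, 30 in all, were chosen with earlier results of these data known. Named genes are the 12 largest called changes each way (mean log2 CPM at least 1, groups apart), the leading called members of each list or else the 2 with the smallest p, called replicate 2 genes that stood apart, and fixed disease and KDM5 genes. Others were named after their values were seen. Other members of a list are quoted to describe it.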

Additional observations from a re-analysis of the deposited data

Results flagged for a closer look

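The change from 24 h to 72 h in MINO differed between GS716054 and DMSO in ASS1, by -2.89 on the log2 scale (edgeR adjusted p = 0.025), and in INHBE, by -3.61 (edgeR adjusted p = 0.0277), tested as the difference of the 2 changes. In DMSO both genes stood higher at 72 h in 3 of 3 libraries, whereas with GS716054 ASS1 was at 9.768, 19.26 and 10.42 CPM at 72 h and INHBE at 1.976, 1.152 and 0.5165 CPM. Leaving out any 1 of the 24 h or 72 h DMSO libraries of replicates 1 and 3, or any 24 h library with GS716054, left no gene past the threshold.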

How the results depend on the processing

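The count of genes that differed between the times in MINO DMSO (14, of which 13 higher and 1 lower) depended on the processing. It was 1727 (1218 and 509) with no filter on low counts, 28 (27 and 1) with a minimum count of 50, 981 (568 and 413) with DESeq2 and 633 (421 and 212) in 1 fit of all 36 libraries. Leaving out single libraries, or 1 replicate number, gave 0 to 4219 genes, 0 to 2226 of them higher and 0 to 1993 lower. The 4219 came without replicate 2, and without only its DMSO library at 24 h or at 72 h the counts were 235 and 19. Without replicate 1 or 3 of DMSO the counts were 4 and 4 (24 h) and 5 and 5 (72 h). The 6 DMSO libraries alone gave 10 genes, none of them lower.

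With the replicate number as a block in the 12 MINO libraries the count was 1829 (989 higher, 840 lower), and in the 6 DMSO libraries 17, with 0 lower. Same-numbered DMSO libraries of the 2 times did not deviate together (correlations of -0.031, -0.065 and 0.033). Those of GS716054 had 0.081, 0.303 and 0.216. Not every correlation was over 0.1 with either agent, so the number was taken as not pairing the times. With the block, the change with GS716054 gave 1092 genes, its difference from DMSO 6, and the contrast of MINO with the other lines (block within line) 30.

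For GS716054 (178 genes) the count was 1229 with no filter, 960 with DESeq2, 739 with all 36 libraries and 0 to 206 without single libraries, with 0 when replicate 1 or 3 at 24 h was left out. The difference from DMSO (2 genes) had 86, 28 and 1 under the first 3 of these, and 0 to 4 without single libraries. The contrast of replicate 2 in DMSO (8 genes) gave 72 with no filter, 3 with a minimum count of 50, 118 with DESeq2, 1474 over all 12 libraries and 12 to 6661 without single libraries. The 6661 and 2006 came without replicate 2 at 24 h or at 72 h, where replicate 2 is 1 library assumed to vary like the others. At 24 h over both agents (193 genes), chosen after seeing the data like all leave-one-out counts of replicate 2, it gave 578, 318 and 21 to 114 with no filter, with DESeq2 and without single libraries. At 72 h all alternatives stayed within 1.5 times of 5379 genes, from 4477 to 5450. The contrast of lines (0 genes) gave 255 with no filter, 30 with DESeq2 and 0 to 8 without single libraries.

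None of the 13 genes named from those past the threshold changed direction in 17 alternatives. The call held in 16 of them for ASS1, 15 for INHBE, 14 for SLC6A9 and SESN2, 12 for RIMS3, 10 for TP63, EDEM1 and SNTB1, 9 for TM6SF1, GPT2 and BIK, 8 for SNX29P1 and 7 for LRRC75B. The highest edgeR adjusted p was 0.0565 for ASS1, 0.214 for INHBE and 0.512 for the others. Signs turned without replicate 2 in CCND1 (-0.02), MCL1 (0.02) and KDM5A (-0.01), without its 72 h DMSO library in NFKBIE (-0.06) and MCL1 (0.02), and without replicate 1 in MT2A (0.25). None of these values passed the test, and the cause was not tested. Among genes named for replicate 2, the log2 difference between the times also turned without replicate 2. It passed in RGS1 (5.19 to -2.03, edgeR adjusted p = 0.0131) and DNAJB1 (1.94 to -0.5, edgeR adjusted p = 0.005). It did not in HSPA1B (3.79 to -0.7), IL2RB (3 to -0.19), H2AC6 (1.69 to -0.34), LDHA (0.54 to -0.07), AMH (-0.09 to 1.03) and CXorf58 (-0.1 to 0.17). Over all left-out libraries the log2 differences ran from -0.02 to 0.36 in CCND1, -0.08 to 0.02 in MCL1, -0.01 to 0.34 in KDM5A, -0.06 to 1.39 in NFKBIE and -1.49 to 0.25 in MT2A. TMM, DESeq2 and total-count scaling moved the median of all genes by less than 0.1 (0.043, 0.04 and 0.044 log2).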
